A study of Mus musculus with 2 samples.

Results

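The 10 genes described here make and load MHC class I molecules in the mouse. They are the heavy chains H2-K1, H2-D1, H2-Q6 and H2-Q7, the light chain B2m, the peptide loading genes Tap1 and Tapbp, and the immunoproteasome subunits Psmb8, Psmb9 and Psmb10, out of 24984 genes in the files. They were chosen by symbol, with the difference between the libraries in FAPs and macrophages already known, so the values below describe these libraries and are not tests.

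Sorted live cells from the hind limbs of several pooled mdx mice, which lack dystrophin and model Duchenne muscular dystrophy, were profiled by droplet-based scRNA-seq in 1 library per genotype. Ctrl mice were Pax7 CreERT2/R26YFP; Yy1 +/+; mdx and dKO mice were Pax7 CreERT2/R26YFP; Yy1 f/f; mdx. Per the study's methods, young adult mice of both genotypes received tamoxifen, which activates the Cre, and muscle was taken about a month later. The mdx strain was C57BL/10 ScSn. Cre is expressed from Pax7, a marker of muscle stem cells (MuSCs), so the deletion of Yy1, which encodes a zinc-finger transcription factor, is directed at MuSCs and their progeny and not at the other cells described here.

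The files held 4527 Ctrl and 3483 dKO barcodes with 45556596 and 33815155 UMIs (counted molecules), and 4010 and 3079 cells were kept, with a median of 7880 and 7806 UMIs. The libraries shared 7 barcodes. Clustering gave 22 clusters, of which 1 was left unnamed, and 10 classes named by marker genes are compared below. Yy1 was read in 369 UMIs of Ctrl and 3 UMIs of dKO MuSC-like cells (160 against 4.85 CPM), and its ratio in the other 9 classes lay between 0.676 and 1.25. The lowest was that of T cell-like cells, with an interval below 1 (0.514 to 0.887). The intervals of FAP-like (1.02 to 1.16) and MO/MP-like cells (1.03 to 1.19) lay above 1. CPM is a gene's UMIs scaled to 1000000 UMIs of the class. There is no replicate of either genotype, so library and genotype cannot be told apart, and every interval given is a 95% interval for counting error only.

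MHC class I molecules carry peptides of cytosolic proteins to the cell surface, where CD8 T cells inspect them. The proteasome cuts the peptides, the TAP transporter brings them into the endoplasmic reticulum, and tapasin holds an empty heavy chain with B2m next to the transporter until a peptide binds. Interferons raise many of these genes together, and exchange 3 constitutive catalytic subunits of the proteasome for the immunosubunits. Resting skeletal muscle fibres are known for very low class I levels, which rise in inflamed muscle.

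In the annotation of GRCm38, 8 of the 10 genes lie on chromosome 17 within 1528 kb, and B2m lies on chromosome 2 and Psmb10 on chromosome 8. Psmb9 and Tap1 run in opposite directions from one another and share 212 bases at their starts, and Psmb8 begins 495 bases after Tap1. The windows of 250 bases before the start are shown for 3 heavy chains, the light chain and the transporter, as examples of the motifs counted below. They are RefSeq sequences of GRCm38.p6, given 5′ to 3′ on the gene's strand, with capitals for the interferon response core AANNGAAA, the 10-base enhancer A motif and the X2 motif TGACG, each searched on both strands. H2-K1 is at chr17:34000348-34000597 on the minus strand, H2-Q6 at chr17:35424600-35424849 on the plus strand, H2-Q7 at chr17:35438905-35439154 on the plus strand, B2m at chr2:122147437-122147686 on the plus strand and Tap1 at chr17:34187306-34187555 on the plus strand.
H2-K1: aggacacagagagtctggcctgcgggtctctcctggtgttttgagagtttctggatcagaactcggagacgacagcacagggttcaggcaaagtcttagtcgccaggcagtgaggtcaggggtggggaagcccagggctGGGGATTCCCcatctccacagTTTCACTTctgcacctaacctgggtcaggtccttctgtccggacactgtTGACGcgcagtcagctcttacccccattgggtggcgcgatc
H2-Q6: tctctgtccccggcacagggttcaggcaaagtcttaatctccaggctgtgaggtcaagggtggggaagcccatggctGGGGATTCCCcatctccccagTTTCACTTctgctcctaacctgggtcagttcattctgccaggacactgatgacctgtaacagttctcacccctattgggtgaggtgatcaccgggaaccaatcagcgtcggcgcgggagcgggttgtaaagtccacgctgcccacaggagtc
H2-Q7: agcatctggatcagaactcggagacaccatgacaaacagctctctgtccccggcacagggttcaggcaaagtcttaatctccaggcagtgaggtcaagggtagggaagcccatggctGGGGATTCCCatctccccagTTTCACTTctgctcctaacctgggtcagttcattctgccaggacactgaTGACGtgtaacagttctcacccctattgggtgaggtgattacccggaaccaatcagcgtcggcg
B2m: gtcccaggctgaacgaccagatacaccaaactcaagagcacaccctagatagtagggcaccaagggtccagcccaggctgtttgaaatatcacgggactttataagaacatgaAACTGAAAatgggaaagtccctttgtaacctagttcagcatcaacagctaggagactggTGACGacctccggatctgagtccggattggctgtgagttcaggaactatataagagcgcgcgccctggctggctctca
Tap1: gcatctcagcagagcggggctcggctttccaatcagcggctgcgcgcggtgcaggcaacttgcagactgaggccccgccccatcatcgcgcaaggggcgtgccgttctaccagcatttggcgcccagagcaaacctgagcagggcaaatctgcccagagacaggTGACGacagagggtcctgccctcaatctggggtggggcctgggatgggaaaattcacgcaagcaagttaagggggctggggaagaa

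All 4 heavy chains held the enhancer A motif, which 0.0852% of all 32851 windows of this length in the reference held. Of the 27 genes with it, 4 have an H2 symbol, and these were H2-K1, H2-D1, H2-Q6 and H2-Q7. The interferon response core was present in the 4 heavy chains and in B2m, 5 of 10 genes, against 21.3% of all windows. The X2 motif was present in 6 of 10 genes, among them B2m, Tap1 and Psmb9 but not H2-Q6, against 17.8% of all windows. A CCAAT box was found in 8 of 10 genes and in 33.8% of all windows. The YY1 motif CCATNTT, searched because Yy1 is the deleted gene, was present in 1 of 10, B2m, and in 12.4% of all windows. Its copy in B2m shares bases with the interferon response core printed above. A match describes these letters only. The RefSeq start of Psmb9 lies further inside the gene than the annotated start used for the overlap above, and by the RefSeq starts the Tap1 and Psmb9 windows share 225 of 250 bases, so the Tap1 sequence above, read on the other strand, is nearly that of Psmb9. The X2 matches of Tap1 and Psmb9 are the same bases, and so are their CCAAT boxes. Each of these sites is thus counted for both genes in the X2 and CCAAT counts. H2-Q6 and H2-Q7 matched at 97.2% of 211 aligned positions, against 84.3% of 191 positions for H2-K1 and H2-Q6.

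H2-K1 and H2-D1 encode the classical heavy chains of this strain, and both were higher in dKO than in Ctrl in FAP-like cells, the fibro-adipogenic progenitors, and in MO/MP-like cells, the monocytes and macrophages. In FAP-like cells Ctrl stood at 482 CPM of H2-K1 (471 to 493) and dKO at 889 CPM (874 to 904), 1.84-fold higher (1.79 to 1.90). Ctrl MO/MP-like cells had 1213 CPM (1195 to 1232) and dKO ones 2207 CPM (2176 to 2239), 1.82-fold higher (1.78 to 1.86). The ratio was thus alike in stromal and myeloid cells although the level in Ctrl was not. H2-D1 was read at 552 and 962 CPM in FAP-like cells, 1.74-fold higher in dKO (1.70 to 1.79), and in MO/MP-like cells at 1586 and 2226 CPM, 1.40-fold higher (1.38 to 1.43).

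H2-Q6 belongs to the Qa family of non-classical heavy chains. In FAP-like cells Ctrl had 9.46 CPM (7.96 to 11.2, 140 UMIs) and dKO 39.1 CPM (36.1 to 42.4, 598 UMIs), a ratio of 4.14 (3.44 to 5.01) that ranked 4 among 10242 genes with at least 100 UMIs there. For MO/MP-like cells the values were 19.3 CPM (252 UMIs) and 80.6 CPM (695 UMIs), a ratio of 4.18 (3.62 to 4.85) that ranked 11 among 8706. In endothelial (EC-like) cells H2-Q6 was already at 364 CPM in Ctrl and was 446 CPM in dKO, 1.23-fold higher (1.09 to 1.38). EC-like cells held 48.8% of all H2-Q6 UMIs of the Ctrl library and 16.6% of those of the dKO library, in which FAP-like and MO/MP-like cells held 25.5% and 29.7%. The cells named EC-like were 11.6% of the Ctrl library and 5.81% of the dKO library. H2-Q7 was read in 35 UMIs over all kept Ctrl cells and 16 over all dKO cells, with 3 and 6 in FAP-like and 11 and 4 in MO/MP-like cells, and no direction can be read from it. The values of H2-Q6 are uncertain, since 42.9% of the 50-base stretches near the 3′ ends of H2-Q6 coding transcripts also occur in another gene, most often H2-Q7, and the counting of UMIs can drop or misplace such reads. For H2-Q7 this share was 11.8%, mostly with H2-Q5, for H2-K1 and H2-D1 it was 9.60% and 8.92%, and for B2m and the 3 immunosubunits it was 0.

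B2m, the light chain that every classical heavy chain needs to reach the surface, had 711 CPM (697 to 725) in FAP-like cells of Ctrl, against 1182 CPM (1165 to 1199) for dKO, 1.66-fold higher (1.62 to 1.70). The ratio was smaller in MO/MP-like cells, 1.38 (1.36 to 1.41), at 2266 and 3134 CPM. In EC-like cells it was 2057 and 2199 CPM, 1.07-fold higher (1.01 to 1.13). B2m and the classical heavy chains together took 0.174% of Ctrl and 0.303% of dKO FAP-like UMIs, and 0.507% and 0.757% of MO/MP-like UMIs.

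The loading genes did not move alike. Tap1, 1 subunit of the peptide transporter, had 25.7 CPM (23.2 to 28.4) in FAP-like cells of Ctrl, against 42.5 CPM (39.3 to 45.9) for dKO, 1.66-fold higher (1.46 to 1.88). Its MO/MP-like levels were 58.1 and 118 CPM, 2.03-fold higher (1.85 to 2.24), the highest ratio there after H2-Q6 among the 10 genes. Tapbp, which encodes tapasin, was at 174 and 184 CPM in FAP-like cells, a ratio of 1.06 (1.00 to 1.12), and in MO/MP-like cells at 213 and 265 CPM, 1.25-fold higher (1.18 to 1.32). Tap2, the partner subunit of the transporter and no member of the group, was 1.21-fold higher (1.05 to 1.38) in FAP-like and 1.23-fold higher (1.05 to 1.45) in MO/MP-like cells.

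**Figure D1:**
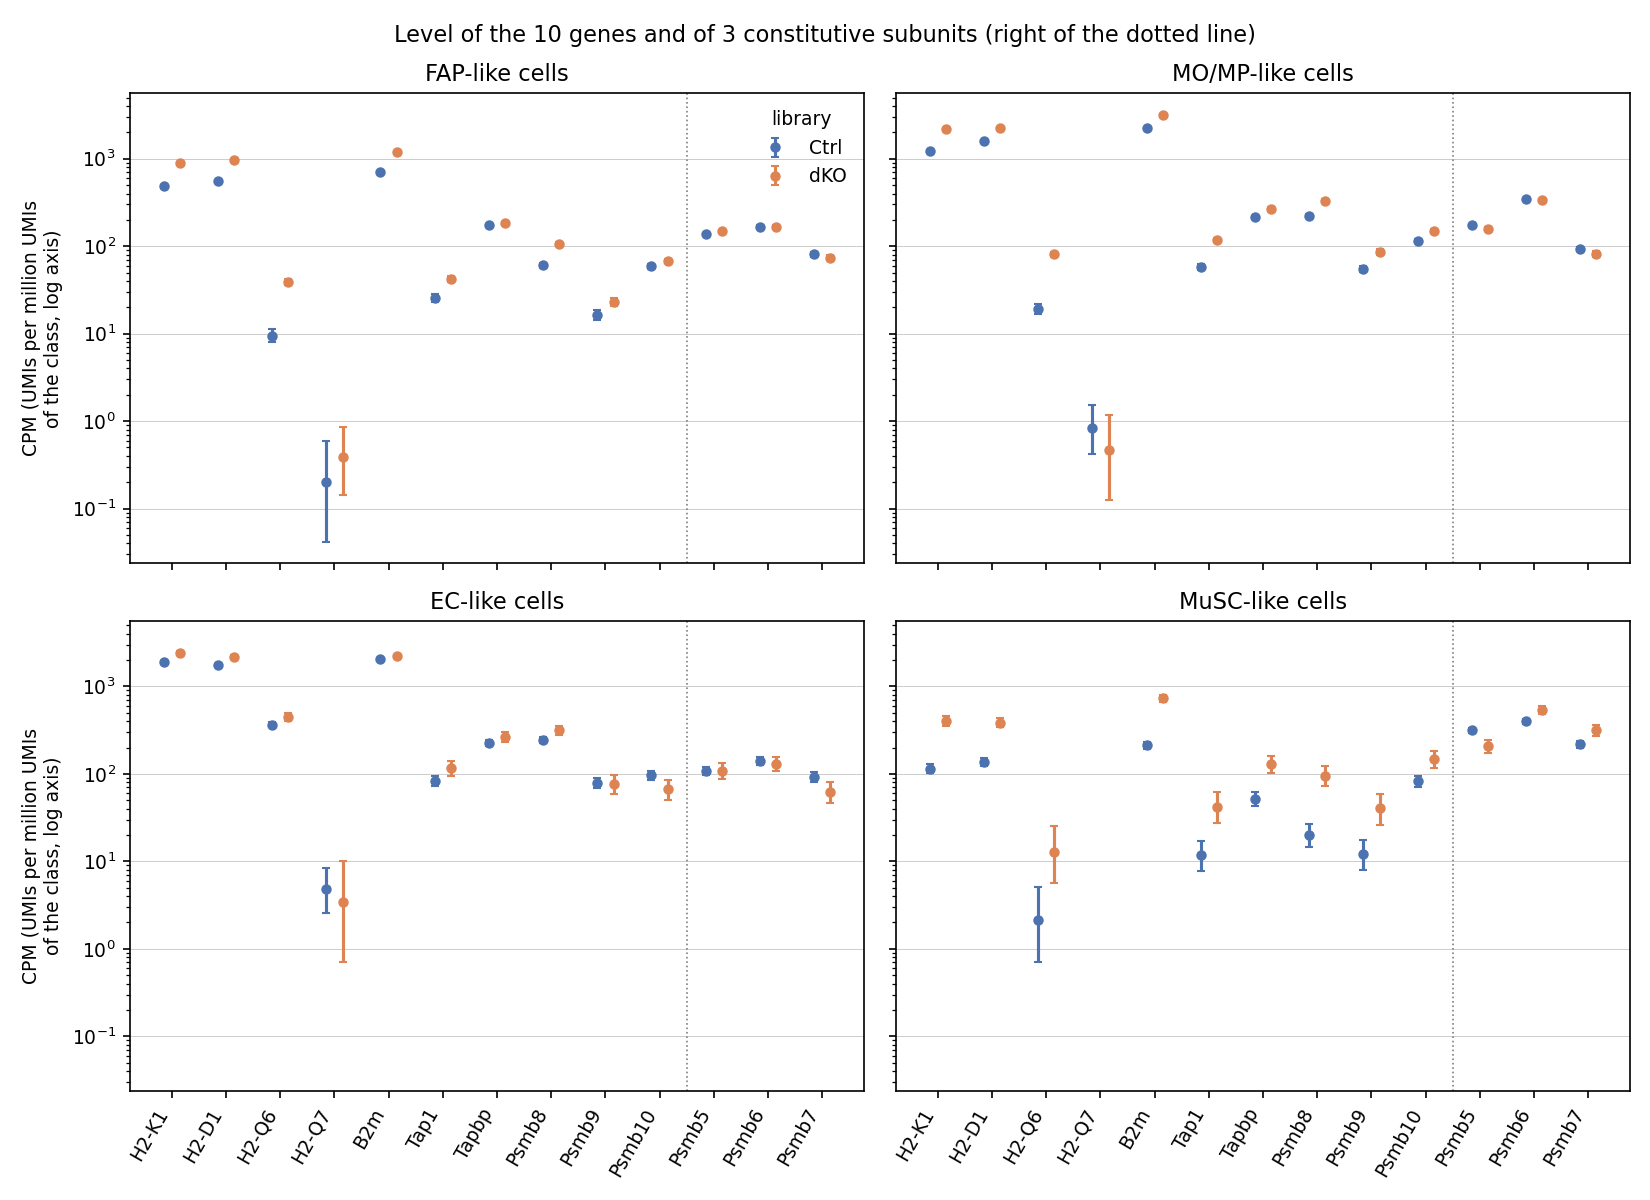
Level of the 10 genes and, right of the dotted line, of the constitutive subunits Psmb5, Psmb6 and Psmb7 in CPM on a log axis, by class and library, with 95% counting intervals as bars; genes with no UMI are not drawn. In the FAP-like and MO/MP-like panels H2-K1, H2-D1, H2-Q6, B2m, Tap1 and Psmb8 lie higher in dKO, with H2-Q6 at 9.46 and 39.1 CPM in FAP-like cells, and the constitutive subunits lie close together.

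The immunosubunits Psmb8, Psmb9 and Psmb10 take the places of Psmb5, Psmb6 and Psmb7 in the proteasome core. Psmb8 had 60.2 CPM (56.3 to 64.3) in FAP-like cells of Ctrl, against 106 CPM (101 to 111) for dKO, 1.76-fold higher (1.62 to 1.91), and in MO/MP-like cells 224 and 332 CPM, 1.48-fold higher (1.41 to 1.56). Psmb9 was 1.40-fold higher (1.19 to 1.66) in FAP-like and 1.57-fold higher (1.42 to 1.74) in MO/MP-like cells, at 16.5 against 23.2 CPM and 55 against 86.4 CPM. Psmb10, the immunosubunit gene that is not on chromosome 17, had the lowest ratios of the 3, at 1.16 (1.06 to 1.27) and 1.3 (1.21 to 1.41), and in MO/MP-like cells without a stromal marker UMI its ratio was 0.947 (0.701 to 1.28). The constitutive genes did not follow. In FAP-like cells Psmb5 was at 137 and 148 CPM, Psmb6 at 167 in both libraries and Psmb7 at 80.6 and 74.0 CPM. Among MO/MP-like cells Psmb5 was at 173 and 156 CPM, Psmb6 at 344 and 337 CPM and Psmb7 at 93.3 and 81.0 CPM.

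The share of immunosubunit UMIs among the UMIs of these 6 genes is not moved by the scaling of a library, though it also depends on how well each transcript is captured. It was 26.0% (25.1 to 27.0) of 7688 UMIs for Ctrl and 33.6% (32.6 to 34.6) of 8949 UMIs for dKO among FAP-like cells, 7.55 percentage points higher (6.15 to 8.94). MO/MP-like cells had 39.2% (38.4 to 40.1) of 13139 and 49.8% (48.8 to 50.8) of 9851 UMIs, 10.6 points higher (9.26 to 11.9). In EC-like cells it was 55.4% and 60.2%, 4.86 points higher (0.437 to 9.22), but this fell to 0.805 points without doublet removal and 0.506 for the mean of each cell's own CPM. By pair, the difference in FAP-like cells was 11 points for Psmb8 with Psmb5, 3.22 for Psmb9 with Psmb6 and 5.75 for Psmb10 with Psmb7. The same pairs in MO/MP-like cells differed by 11.7, 6.65 and 9.73 points. Lymphoid and dendritic cells held the highest shares in Ctrl, with 66.2% in T cell-like and 64.0% in dendritic cell-like cells. In dKO the share in T cell-like cells was 66.5%, a difference of 0.323 points (-6.25 to 6.96). That in dendritic cell-like cells was 69.7%, 5.7 points higher (2.36 to 9.02).

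**Figure D2:**
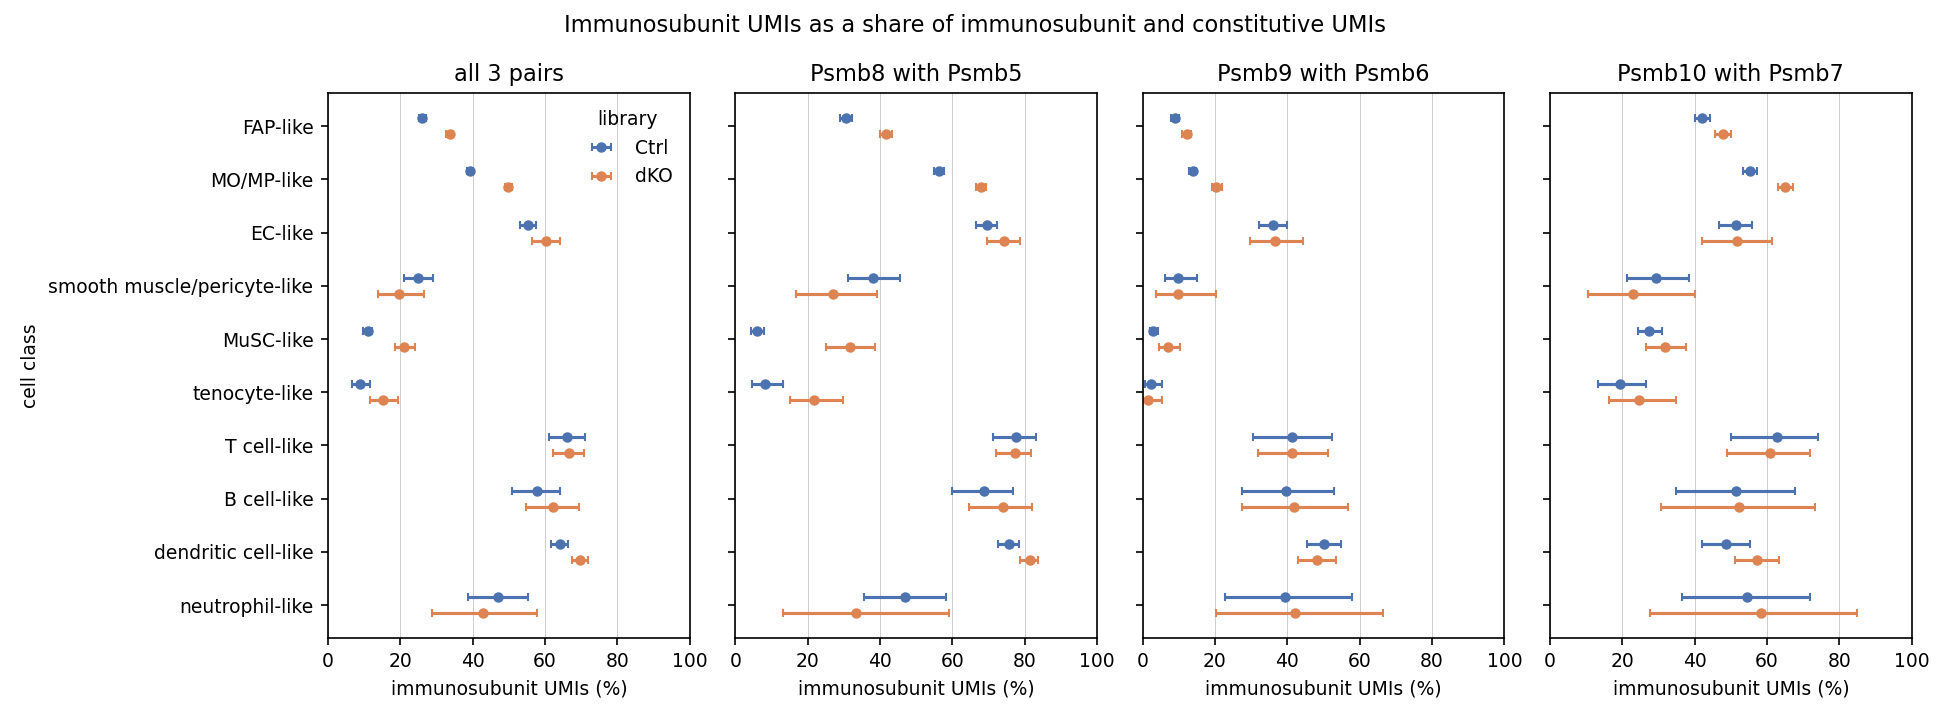
Immunosubunit UMIs as a percent of immunosubunit and constitutive UMIs, for all 3 pairs and for each pair, by class and library, with exact 95% binomial intervals as bars. The dKO points lie to the right of the Ctrl points in FAP-like cells (33.6% against 26.0%) and MO/MP-like cells (49.8% against 39.2%), and on top of each other in T cell-like cells (66.5% against 66.2%).

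Across classes the members were counted as higher in dKO at 1.5-fold or more with at least 100 UMIs in the class over both libraries. In FAP-like cells 6 of 10 passed, where 9 had enough UMIs, against 2.6% of all 10242 genes with enough UMIs. Of the same 10 genes, 4 passed in MO/MP-like cells, where 9 had enough UMIs, against 4.32% of all genes, with Psmb8 just under the limit. The rule for the genes used these contrasts, so nothing further is read from those counts. The median log2 ratio of the 9 was 0.73 in FAP-like and 0.57 in MO/MP-like cells, where the median of all genes was -0.06 and 0.00.

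Classes below are given by how many of the members with enough UMIs passed, beside the share of all genes with enough UMIs. Where cells holding a marker UMI are left out, the remaining cells also had fewer UMIs on average, so this selects by depth too. In EC-like cells 0 of 9 passed (all genes 4.6%), although H2-K1, at 1889 and 2422 CPM, was 1.28-fold higher (1.22 to 1.35). Without cells holding a leukocyte marker UMI its ratio was 1.14 (1.06 to 1.23), and those of H2-Q6 (1.1, 0.928 to 1.31) and Psmb8 (0.995, 0.791 to 1.24) had intervals that included 1, while that of Tap1 went from 1.4 to 1.91 (1.34 to 2.72) and passed. Psmb10 went the other way there, at 96.4 CPM in Ctrl and 66.5 CPM in dKO, a ratio of 0.690 (0.510 to 0.921), and Psmb7, its constitutive counterpart, was also lower, at 0.677 (0.495 to 0.912). In smooth muscle/pericyte-like cells 0 of 4 passed (all genes 7.4%), and H2-D1 (662 and 531 CPM) and B2m (860 and 665 CPM) were lower in the dKO library. Leukocyte markers were lower there too, at 389 and 177 CPM, and without cells holding a UMI of them, which left 44 and 23 of 107 and 38 cells, the ratios were 1.41 (1.05 to 1.88) for H2-D1 and 1.4 (1.07 to 1.82) for B2m, on the other side of 1. With the mean of each cell's own CPM the log2 ratios were also above 0, at 0.11 and 0.19. In T cell-like cells 0 of 7 passed (all genes 5.07%), with H2-K1 at 2561 and 3054 CPM, the highest level of any class. In B cell-like cells 0 of 5 passed (all genes 3.66%), and H2-K1, H2-D1 and H2-Q6 were each lower in dKO, H2-K1 at 1525 and 1276 CPM (ratio 0.837, 0.728 to 0.961), while B2m was at 1528 and 1532 CPM.

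In dendritic cell-like cells 2 of 9 passed (all genes 6.26%), which were Psmb10 at 96.9 and 164 CPM and Tap1 at 123 and 185 CPM, and Tap1 lay on the limit. Under some alternatives, given below, only 1 passed. The median log2 ratio of the 9 was 0.52. H2-K1 (1.44, 1.34 to 1.55), B2m (1.43, 1.34 to 1.53) and Psmb8 (1.46, 1.31 to 1.62) were higher but under 1.5-fold. Psmb9 had a ratio of 0.923 (0.754 to 1.13). In neutrophil-like cells 2 of 3 passed (all genes 21.3%), which were H2-K1 at 463 and 864 CPM and B2m at 1168 and 1890 CPM. Without doublet removal 0 members passed there, and 1 passed with median scaling. The dKO library held 36 neutrophil-like cells, and the median log2 ratio of all genes there was 0.12, against which these ratios are to be read. Leukocyte markers summed to 123626 and 74966 CPM in this class, a ratio of 0.606 (0.591 to 0.622). The part of this shift in the ratios of the members was not tested. In tenocyte-like cells 3 of 4 passed (all genes 2.88%), where H2-K1 was at 190 and 367 CPM, H2-D1 at 418 and 632 CPM and B2m at 518 and 843 CPM. Without cells holding a leukocyte marker UMI, which left 46 and 48 cells, the ratio of H2-K1 there was 3.27 (2.43 to 4.45).

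**Figure D3:**
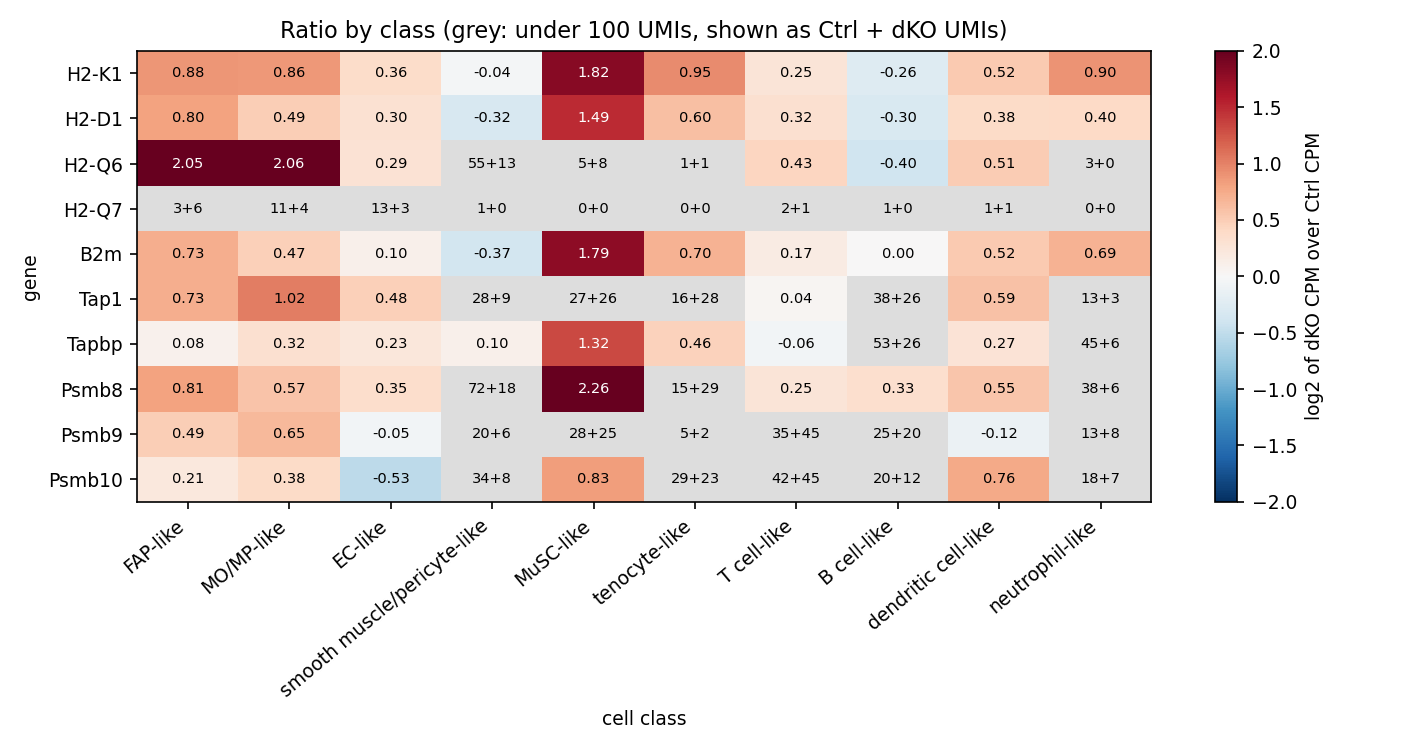
Colour and number give log2 of the dKO CPM over the Ctrl CPM for each gene (rows) in each class (columns), from blue (lower in dKO) to red (higher in dKO); grey cells had under 100 UMIs and show the Ctrl and dKO UMIs. H2-Q6 reads 2.05 in FAP-like and 2.06 in MO/MP-like cells, the MuSC-like column reaches 2.26 for Psmb8, and the B cell-like column is at or below 0 except for Psmb8 at 0.33.

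MuSC-like cells, the myogenic class and the one in which Yy1 is deleted, had the lowest H2-K1 level of all classes in Ctrl, at 114 CPM (101 to 129), and were at 402 CPM (354 to 456) in dKO, 3.52-fold higher (2.95 to 4.20). H2-D1 was at 137 and 386 CPM, B2m at 212 and 732 CPM, Tapbp at 51.9 and 129 CPM, Psmb8 at 19.9 and 95.3 CPM and Psmb10 at 82.7 and 147 CPM. All 6 members with enough UMIs passed 1.5-fold, against 7.51% of all genes, but Psmb8 (46 and 59 UMIs) reached the minimum only through its higher dKO level, so the count supports nothing further. The immunosubunit share over all 3 pairs was 11% in Ctrl and 21.1% in dKO, 10.1 points higher (7.09 to 13.3). By pair it was 5.99% and 31.6% for Psmb8 with Psmb5, 2.95% and 7.02% for Psmb9 with Psmb6, and 27.4% and 31.8% for Psmb10 with Psmb7, a difference of 4.38 points (-2.01 to 11). Psmb5 itself was lower in dKO, at 313 and 207 CPM (ratio 0.662, 0.544 to 0.8), which adds to the difference of its pair, while Psmb6 (ratio 1.34, 1.18 to 1.52) and Psmb7 (1.44, 1.22 to 1.7) were higher. The 11 other core proteasome genes summed to 3230 and 4268 CPM in this class, with 3 of 11 at least 1.5-fold higher and a median log2 ratio of 0.48. Of 32 interferon-stimulated genes only 3 had enough UMIs in this class, with 1 higher and 1 lower by 1.5-fold and a median log2 ratio of -0.14, while the sum over all 32 was 324 and 1150 CPM. This class rests on few cells, 117 in Ctrl and 30 in dKO, and 1 dKO cell held 34.9% of the H2-K1 UMIs. Without the cell with most member UMIs in each library the ratio of H2-K1 was 2.64 (2.15 to 3.23), that of B2m 3.05 (2.64 to 3.51) and that of Psmb8 5.66 (3.72 to 8.67). With the mean of each cell's own CPM in place of summed UMIs, the log2 ratio of Psmb8 was 1.23, against 2.26. The class is a single cluster whose leading genes are Gal, Myog, Mymx, Ttn and Chrna1, mostly genes of differentiating myocytes, so stem cells and myocytes are not separated in it, and the part of their mix in these ratios was not tested. Leukocyte markers summed to 178 CPM in MuSC-like cells of Ctrl and 136 CPM in those of dKO, and stromal markers to 911 and 441 CPM. Without cells holding a UMI of a leukocyte marker, which left 31 and 11 cells, H2-K1 was 2.13-fold (1.44 to 3.19) and B2m 3.07-fold (2.24 to 4.23) higher, and the ratio of Psmb10 went from 1.78 to 4.75 (2.27 to 10.9) on 10 and 31 UMIs. The 3 members with enough UMIs then passed, of which H2-K1 (46 and 64 UMIs) and H2-D1 (35 and 80 UMIs) reached the minimum only through dKO.

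Ordered by the H2-K1 level in Ctrl, the classes ran from T cell-like (2561 CPM), EC-like (1889) and B cell-like (1525) to MO/MP-like (1213) and dendritic cell-like cells (1181), whose intervals overlapped. Smooth muscle/pericyte-like (605), FAP-like (482) and neutrophil-like cells (463) followed, the latter pair with overlapping intervals, and tenocyte-like (190) and MuSC-like cells (114) were lowest. In dKO, MO/MP-like cells at 2207 CPM stood above B cell-like cells at 1276 CPM, and FAP-like cells at 889 CPM above smooth muscle/pericyte-like cells at 588 CPM. Over the 20 levels of class and library, on the log2(CPM + 1) scale, the genes whose pattern was most like that of H2-K1 were B2m (r = 0.94), Tap1 (r = 0.93) and H2-T23 (r = 0.92), out of 7968 genes. For Psmb8 they were Tap1 (r = 0.97), Psme1 (r = 0.92) and Psmb9 (r = 0.90). These points share libraries and depth, and the values are descriptions.

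Counts per cell show the spread within a class. With every cell thinned to 2000 UMIs, the median FAP-like cell held 4 UMIs of the 10 genes in Ctrl (quartiles 2 and 6) and 6 in dKO (quartiles 4 and 9), over 1024 and 1089 cells, with 63 and 54 cells too shallow. For MO/MP-like cells the median was 11 UMIs in Ctrl (quartiles 7 and 15) and 16 in dKO (quartiles 11 and 22) over 1273 and 1016 cells, with 149 and 114 cells too shallow. The quartiles of the libraries overlapped in both classes. H2-K1 was found in 55.8% (52.7 to 58.8) of thinned Ctrl and 73.1% (70.4 to 75.7) of thinned dKO FAP-like cells, and in 90.7% and 95.3% of cells before thinning. H2-Q6 was found in 1.66% and 6.43% of thinned FAP-like cells and in 4.48% and 14.8% of thinned MO/MP-like cells, and before thinning in 8% and 23.6% of FAP-like and 12% and 33.2% of MO/MP-like cells. In tenocyte-like cells, a class with 1 H2-Q6 UMI in each library, the unthinned share was 0.685% and 1.11%.

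**Figure D4:**
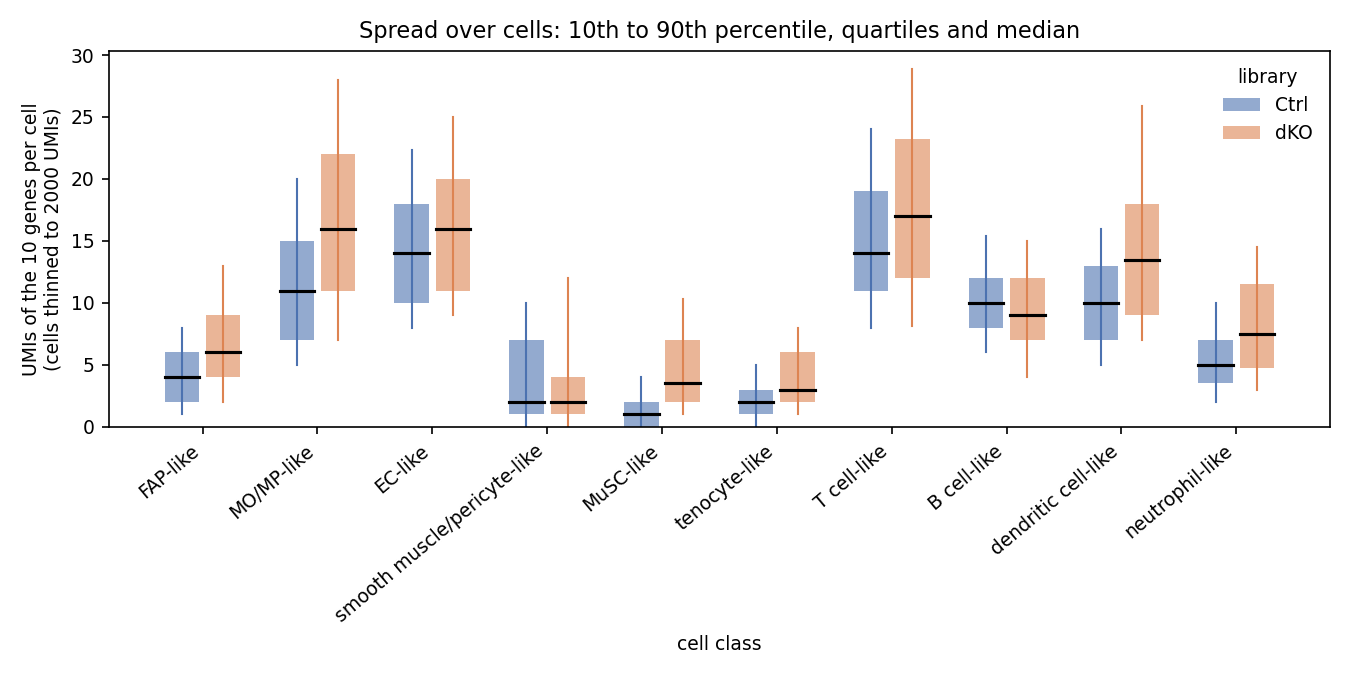
Member UMIs in each cell after thinning every cell to 2000 UMIs, by class and library; boxes span the quartiles, black lines are medians and thin lines reach from the 10th to the 90th percentile. Medians in FAP-like cells are 4 (Ctrl) and 6 (dKO), those in MO/MP-like cells 11 and 16, and the boxes overlap.

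Among the 3 FAP-like and 5 MO/MP-like clusters, H2-K1, H2-D1, H2-Q6 and B2m were higher in dKO in every cluster. The log2 ratio of H2-K1 was 1.02 in the FAP-like cluster led by Inmt, 0.70 in that led by Cxcl5 and 0.76 in that led by Cxcl13. For MO/MP-like clusters it was 1.05 in the cluster led by Syngr1 and Spp1, 0.95 in that led by Gpr34 and Apoe, 0.71 in that led by Ear2, and 0.57 in both the monocytic cluster led by Slpi and Chil3 and the one led by Fcna and Cd163. The Fcna and Cd163 cluster also had the lowest log2 ratio of B2m among MO/MP-like clusters, 0.16, and the Syngr1 and Spp1 cluster the highest, 0.64. The 3 EC-like clusters had lower ratios of H2-K1 than these. In the cluster led by Car4 and Gpihbp1 H2-K1 was at 0.51 (0.39 to 0.62) and H2-Q6 at 0.60. In the cluster led by Gkn3 they were at 0.03 and -0.03, with intervals that included 0. The Car4 interval of H2-K1 overlapped those of the Slpi (0.47 to 0.66) and Fcna clusters (0.47 to 0.67). The order of the Car4 and Fcna clusters differed by gene, with H2-D1 at 0.51 and 0.19 but H2-Q6 at 0.60 and 1.74.

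**Figure D5:**
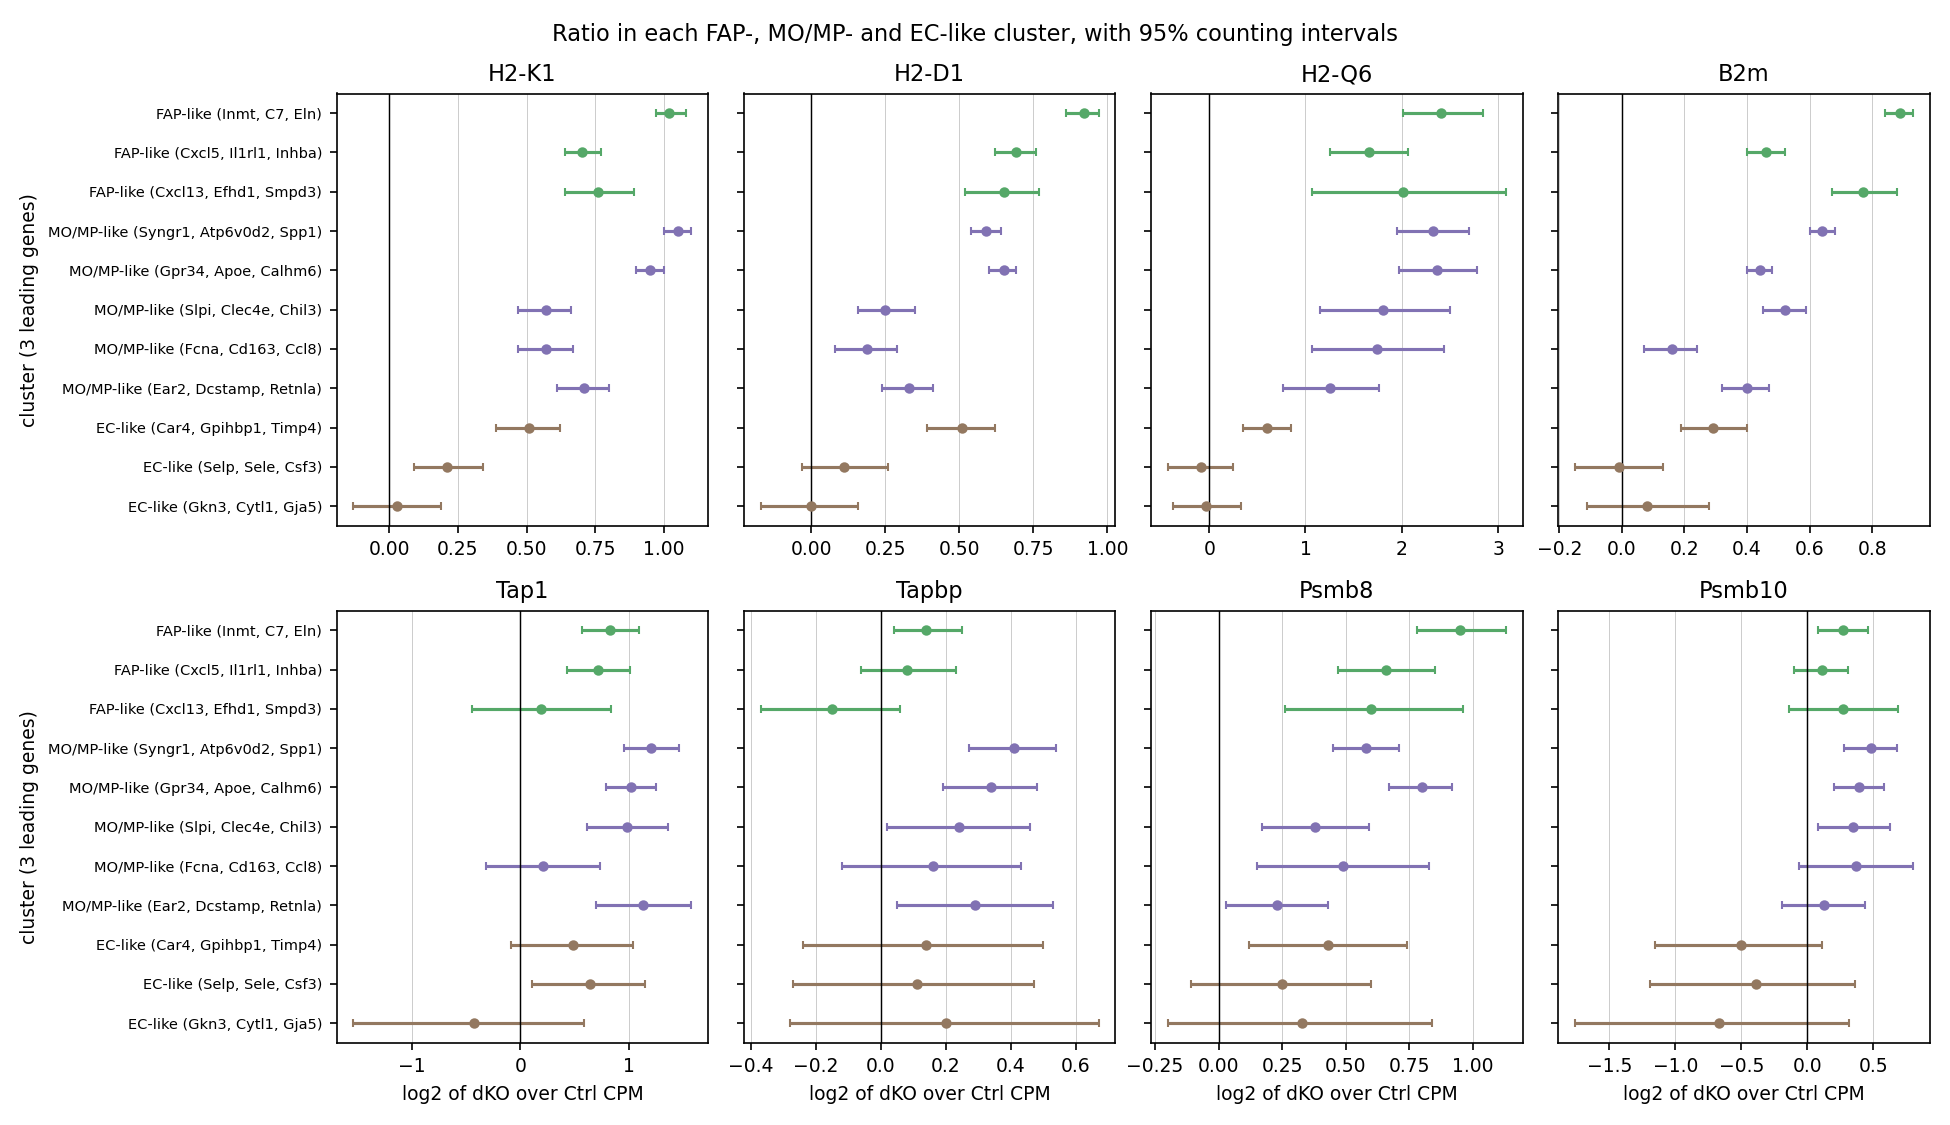
Log2 of the dKO CPM over the Ctrl CPM of 8 members in each FAP-like (green), MO/MP-like (purple) and EC-like (brown) cluster, named by leading genes, with 95% counting intervals as bars and a line at no difference. H2-K1 lies right of the line in all 8 FAP-like and MO/MP-like clusters, from 0.57 to 1.05, and at 0.03 in the EC-like cluster led by Gkn3.

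Of 19 other class I and class I-like heavy chain genes, 10 had enough UMIs in FAP-like cells and 3 of them were at least 1.5-fold higher in dKO, with a median log2 ratio of 0.45. These were H2-Q4 (76.0 and 143 CPM), H2-T23 (50.7 and 93.3 CPM), which encodes the heavy chain of Qa-1, and H2-Q5 (2.91 and 6.02 CPM). H2-Q5, with 43 and 92 UMIs, reached the minimum only through dKO. H2-Q10 was lower (8.58 and 5.69 CPM). Among MO/MP-like cells 6 of 9 passed, with a median of 0.79. They were H2-Q4 (57.8 and 119 CPM), H2-Q5 (8.19 and 18.7 CPM), H2-T23 (148 and 252 CPM), H2-T10 (5.05 and 8.70 CPM), H2-T24 (11.5 and 21.7 CPM) and H2-M2 (3.21 and 15.3 CPM), the last of which, with 42 and 132 UMIs, reached the minimum only through dKO. Fcgrt, the B2m-bound receptor that recycles IgG, did not follow and had ratios of 0.896 (0.852 to 0.943) and 1.13 (1.05 to 1.22). Under the minimum in MO/MP-like cells, Mr1 (67 and 24 UMIs) was lower, with a ratio of 0.543 (0.326 to 0.878). H2-T22 (30 and 59 UMIs), also under it, was higher, at 2.98 (1.89 to 4.8).

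Of 7 other loading genes none of the 6 with enough UMIs passed in FAP-like cells, and 1 of 7 passed in MO/MP-like cells. This was Nlrc5, the transactivator of class I genes, at 9.10 and 18.3 CPM (ratio 2.01, 1.58 to 2.58). In FAP-like cells it had 23 and 70 UMIs, under the minimum, with a ratio of 2.95 (1.82 to 4.95). Among the general chaperones, Calr was higher in FAP-like cells (ratio 1.15, 1.12 to 1.17) and lower in MO/MP-like cells (0.886, 0.861 to 0.911), and Canx had ratios of 0.992 (0.953 to 1.03) and 0.758 (0.725 to 0.792). The 11 other core proteasome genes summed to 1862 and 1874 CPM in FAP-like and 2033 and 1924 CPM in MO/MP-like cells, and 0 of 11 passed in either class. Psme1, part of the interferon-inducible activator cap, was 1.20-fold (1.12 to 1.28) and 1.32-fold (1.25 to 1.39) higher, under the limit. Of 32 other genes of the chromosome 17 region, 0 passed in FAP-like and 1, Daxx (30.6 and 52.1 CPM), passed in MO/MP-like cells, with medians of -0.06 and -0.01.

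Interferon-stimulated genes were also higher in FAP-like and MO/MP-like cells of dKO. Of 32, 28 of 30 with enough UMIs were at least 1.5-fold higher in dKO FAP-like cells and 30 of 31 in MO/MP-like cells, and their summed level was 2.38-fold (2.34 to 2.41) and 2.32-fold (2.29 to 2.35) higher. Of these, Mx1 and Cd274 in FAP-like and Gbp4 in MO/MP-like cells reached the minimum only through dKO. In FAP-like cells Ifi27l2a was at 417 and 1401 CPM, Bst2 at 248 and 535 CPM and Isg15 at 81.4 and 237 CPM, and in MO/MP-like cells Ifi27l2a was at 1283 and 3089 CPM, Bst2 at 358 and 678 CPM and Rsad2 at 217 and 510 CPM. In EC-like cells 8 of 28 passed. In smooth muscle/pericyte-like cells the interferon-stimulated genes summed to 1532 and 2436 CPM, a ratio of 1.59 (1.44 to 1.76), where that of the 10 members together was 0.856 (0.774 to 0.945). In B cell-like cells these ratios were 1.33 (1.13 to 1.56) and 0.891 (0.829 to 0.957). Only 6 of the 32 genes had enough UMIs in smooth muscle/pericyte-like cells and 1 in B cell-like cells. In the former, H2-D1 and B2m turned to 1.41 and 1.4 without leukocyte-marker cells. Both ratios were above 1 in EC-like (1.32 and 1.19), MuSC-like (3.55 and 3.09) and tenocyte-like cells (1.92 and 1.63). The same held in T cell-like (1.31 and 1.18), dendritic cell-like (1.91 and 1.38) and neutrophil-like cells (3.41 and 1.46). Thinned FAP-like cells with 0 UMIs of these 32 genes were 18% of Ctrl and 4.32% of dKO cells, and held on average 3.22 ± 2.22 (SD over 184 cells) and 4.55 ± 2.98 (SD over 47 cells) UMIs of the 10 genes. Cells with 4 or more such UMIs held 5.16 ± 3.74 and 7.71 ± 5 (SD). For FAP-like cells the mean went up with each step in interferon-stimulated UMIs in both libraries and was higher in dKO at every step. The top step has no upper limit and held 32.9% of Ctrl and 70.9% of dKO cells, so it does not compare cells of equal interferon-stimulated UMIs. MO/MP-like cells with 1 such UMI held 10.6 ± 5.84 in Ctrl and 14.4 ± 8.48 in dKO (SD). Those with 2 or 3 held 10.3 ± 5.23 and 15.1 ± 7.97 (SD), so the Ctrl mean did not rise at that step. MO/MP-like cells with 4 or more held 13 ± 6.32 (SD, 701 cells) and 17.2 ± 8.38 (SD, 918 cells). Those with 0 held 9.39 ± 5.86 (SD, 95 cells) in Ctrl and 6.86 ± 3.18 (SD, 7 cells) in dKO, the other direction on very few dKO cells.

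Leukocyte markers were also read in FAP-like cells, and their part in the differences of the members was not tested. The 11 markers found in the files summed to 127 CPM in Ctrl and 93.3 CPM in dKO, with Cd3e, a T cell marker, at 1 UMI in Ctrl and 0 in dKO, and with Lyz2 (16.5 and 10.9 CPM) and S100a9 (16.0 and 2.09 CPM) lower. In FAP-like cells without a UMI of these markers, 334 in Ctrl and 556 in dKO, H2-K1 was 1.92-fold (1.81 to 2.03) and H2-Q6 4.61-fold (3.16 to 6.97) higher. The 7 stromal markers summed to 488 and 349 CPM in MO/MP-like cells, with Col1a1, Col3a1 and Lum each lower by 1.5-fold or more. The 11 leukocyte markers summed to 19778 and 20423 CPM there, a ratio of 1.03 (1.03 to 1.04). Of the 10 with enough UMIs, 0 were higher and 1 was lower by 1.5-fold or more, S100a9 at 76.9 and 19.8 CPM. Among the 154 and 194 MO/MP-like cells without a stromal UMI, H2-K1 was 1.73-fold (1.59 to 1.88) and H2-Q6 2.84-fold (1.65 to 5.17) higher, the latter on 17 and 67 UMIs.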

How the data were processed

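The 10 genes, the other gene lists and the comparisons were chosen with earlier results of these data known. The deposited files hold counts of UMIs per gene and cell barcode for each library, made by the authors with Cell Ranger against mm10. The submitters' notes give Cell Ranger version 7.0.0 while the matrix header gives 3.0.2. The files hold 0 mitochondrial genes, so no filter on them was possible. Cells with at least 500 genes were kept, and the 7.5% with the highest Scrublet score in each library were removed as doublets, the rate in the study's methods. The 4335 Ctrl and 3329 dKO cells before this removal equal in number those the study kept after its own, so the 325 and 250 cells taken out here may be ones it kept, and no removal was an alternative. On its own threshold Scrublet called 8 Ctrl and 21 dKO cells. Libraries were integrated with anchors (Seurat 5.3.0, 2000 variable genes, 40 dimensions) and clustered at resolution 0.8, and clusters were named from 18 marker lists.

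UMIs were summed by class and library and divided by the class total. With 1 library per genotype no test was possible and no p-value is given. Intervals are exact Poisson for levels, exact conditional binomial for ratios and exact binomial for shares, tested on simulated counts. Genes named beyond the 10 are those of the lists at 1.5-fold or more with at least 100 UMIs in FAP-like or MO/MP-like cells, 3 per list where more than 10 qualified, and Psmb5, Psmb6 and Psmb7. Tap2, Psme1, Calr, Canx, Fcgrt, Mr1, H2-T22, Cd3e, Mx1, Cd274 and Gbp4, and Nlrc5 in FAP-like cells, were named after their values were seen. Alternatives were tried for doublets, the gene minimum, scaling, averaging, clustering and thresholds.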

Additional observations from a re-analysis of the deposited data

Results flagged for a closer look

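Some members had ratios on opposite sides of 1 in different classes, with counting intervals that excluded 1 on both sides. The differences between classes were not tested, since each class has 1 library per genotype. In B cell-like cells the log2 ratio of dKO to Ctrl was -0.26 for H2-K1, against 1.82 in MuSC-like cells, -0.30 for H2-D1, against 1.49 in MuSC-like cells, and -0.40 for H2-Q6, against 2.06 in MO/MP-like cells. In smooth muscle/pericyte-like cells it was -0.32 for H2-D1, against 1.49 in MuSC-like cells, and -0.37 for B2m, against 1.79, but neither direction was stable, with H2-D1 at 0.11 to 0.49 under 3 alternatives and B2m at 0.19 and 0.49 under 2. In EC-like cells it was -0.53 for Psmb10, against 0.83 in MuSC-like cells, where its ratio went from 1.78 to 4.75 without leukocyte-marker cells. The MuSC-like values rest on 30 dKO cells and the smooth muscle/pericyte-like values on 38.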

How the results depend on the processing

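No paired analysis was possible because the labels carry no replicate numbers and each genotype has 1 library. The number of members at 1.5-fold or more stayed within 1.5 times its value in FAP-like and MO/MP-like cells under each alternative tried except a 2-fold threshold, which left 1 and 2. That threshold left 0 in tenocyte-, dendritic cell- and neutrophil-like cells. Other counts that moved were EC-like cells with 1 (no doublet removal, a minimum of 200 genes, or no cells with a leukocyte marker), smooth muscle/pericyte-like cells with 1 (mean of each cell's own CPM), tenocyte-like cells with 6 (no minimum of UMIs), and MuSC-like cells with 3 (no cells with a leukocyte marker). Dendritic cell-like cells had 1 with 200 genes, median scaling, clustering without the listed genes, or without the cell with most member UMIs, and neutrophil-like cells had 0 without doublet removal and 1 with median scaling.

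Of the log2 ratios whose interval excluded 0, those that changed sign were H2-D1 in smooth muscle/pericyte-like cells (0.19 without doublet removal, 0.11 for the mean of cells, 0.49 without leukocyte-marker cells), B2m there (0.19 and 0.49 under the latter pair), H2-Q6 in MuSC-like cells (-0.42 for the mean of cells, and 2 against 0 UMIs without leukocyte-marker cells), Psmb8 in EC-like cells (-0.01 without leukocyte-marker cells) and Psmb10 in MO/MP-like cells (-0.08 without stromal-marker cells). Other such ratios that moved by over 1.5 times were, without leukocyte-marker cells, H2-K1 (3.52 to 2.13), Tap1 (3.59 to 2.3), Psmb9 (3.33 to 5.11) and Psmb10 (1.78 to 4.75) in MuSC-like cells and H2-K1 (1.93 to 3.27) and Psmb8 (3.4 to 8.58) in tenocyte-like cells. The log2 ratio of Psmb8 in MuSC-like cells went from 2.26 to 2.91 with 200 genes and to 1.23 for the mean of cells, and that of Psmb9 there from 1.74 to 1.05 for the mean of cells. With 200 genes those of H2-Q6 in MuSC-like cells and Psmb8 in tenocyte-like cells went from 2.58 to 3.71 and from 1.76 to 2.60. The share of FAP-like cells with a Tapbp UMI differed by -0.0736 points before thinning. In each case the cause was not tested. The immunosubunit shares of FAP-, MO/MP- and EC-like cells kept their direction under the 5 alternatives that apply to them, at 7.23 to 8.38, 9.66 to 10.7 and 0.506 to 4.86 points. Leaving out cells by marker, or the cell with most member UMIs, was chosen after seeing the data. Leaving out cells by marker also left shallower cells on average, and the part of depth in those ratios was not tested. The dKO MuSC-, smooth muscle/pericyte- and neutrophil-like classes hold only 30, 38 and 36 cells.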
